A study of Mus musculus with 2 samples.

Results

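The genes described here encode the enzymes and subunits that place N6-methyladenosine (m6A) on messenger RNA. They are 9 genes, taken by name: the catalytic core Mettl3 and Mettl14, the regulatory subunits Wtap, Virma, Zc3h13, Cbll1, Rbm15 and Rbm15b, and the separate methyltransferase Mettl16. Their transcripts were examined as substrates, for m6A sites of their own. Of the 9 genes, 6 carried at least 1 site, with 18 sites in all, out of 4953 genes with 8987 sites in the list. The assay was m6A immunoprecipitation of fragmented RNA followed by sequencing (MeRIP-seq), with 1 immunoprecipitate (IP) library and 1 input library, both from islets of 129sv mice at 2 weeks of age. No genotype, treatment or other age is in the comparison, the labels do not say how many animals were pooled, and there are no replicates. Each fold enrichment, IP over input, each score and each false discovery rate below is therefore the authors' own value for a site, from the authors' deposited table, without an error or a test across samples.

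In mouse and human cells Mettl3 and Mettl14 form a heterodimer in which Mettl3 binds S-adenosylmethionine and transfers the methyl group and Mettl14 holds the RNA. Wtap anchors this dimer in nuclear speckles, Virma acts as the scaffold of the regulatory subunits, and Rbm15 and its paralogue Rbm15b bind RNA and bring the complex to its targets. In mouse beta cells, loss of the catalytic core is known to impair insulin secretion.

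The labelled tissue was set against markers of islet cells and of other cells that an islet preparation can hold. Sites were present on 5 of 17 islet endocrine markers (among them Chga, Chgb and Mafa, but not Ins1, Ins2, Gcg or Sst), 2 of 9 acinar, 4 of 6 duct, 5 of 5 endothelial, 1 of 4 leukocyte and 3 of 5 fibroblast markers. Over all protein-coding genes the share with a site was 22.2%. The islet (29.4%), acinar (22.2%) and leukocyte (25%) shares lay near it, and the duct (66.7%), endothelial (100%) and fibroblast (60%) shares lay above it. A transcript without a site may still be abundant, so these counts do not measure the makeup of the tissue, and the part of each cell type in the sites below was not tested. No read counts were used, so sequencing depth and the abundance of each transcript in the input are unknown.

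Sequence could be read for 1 of the 18 sites, the second site of Wtap. RefSeq windows around the annotated start sites (GRCm38.p6) were at hand for 7 of the 9 genes, all but Mettl14 and Virma, and this was the only member site that overlapped one. It is shown for that reason. The window below covers 250 bases before to 50 bases after the most upstream Wtap start, chr17:12992494-12992793 on the minus strand, written 5′ to 3′. Capitals mark the 53 bases that lie inside the site.
Wtap upstream start window: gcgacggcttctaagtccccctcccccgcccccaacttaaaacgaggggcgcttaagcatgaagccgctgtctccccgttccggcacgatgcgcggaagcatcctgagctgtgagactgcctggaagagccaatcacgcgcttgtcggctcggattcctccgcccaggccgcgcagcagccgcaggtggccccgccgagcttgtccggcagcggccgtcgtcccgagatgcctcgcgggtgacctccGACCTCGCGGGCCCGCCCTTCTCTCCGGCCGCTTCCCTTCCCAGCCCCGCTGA
The whole site, 238 bases, was assembled from the overlapping windows and searched for GGACT, a frequent form of the m6A consensus, on both strands. It held 1 GGACT on the sense strand and 0 on the antisense strand. The match starts 88 bases after the most upstream of the 3 annotated starts and 196 bases before the most downstream one, so it lies outside transcripts that begin there. It is shown in capitals within the 30 bases chr17:12992438-12992467, minus strand.
Wtap GGACT stretch: gcgggcttccgcGGACTgtctccgtgcggc
Other start windows held the same letters. Of 32544 distinct start windows of 300 bases, 26.3% held it on the sense strand and 25.9% on the antisense strand. Among the 1731 windows that overlapped a site of their own gene the sense share was 25.8% and the antisense share 26.9%. The site itself was 78.6% G and C, against a median of 65.3% for windows that overlapped a site and 53% for all windows. The windows hold 250 bases before a start and 50 after it. The 238 bases of the site lie almost wholly after the most upstream Wtap start. Windows and site thus differ in length and position, so the shares and medians are no matched background. The match is a description of the sequence and does not place the methylated base.

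The question put to the list was which parts of the methylation machinery have transcripts that were themselves enriched by the m6A antibody. Virma and Zc3h13 had the strongest sites, with folds of 28.02 and 22.96, followed by Mettl14 (10.25), Wtap (7.28), Rbm15 (5.31) and Mettl16 (3.4). Mettl3, Cbll1 and Rbm15b had no site in the list. A site was present on 6 of 9 members (66.7%), beside 22.2% of all 21900 protein-coding genes in the annotation. That background, here and at the limits below, includes genes that islets may not express. Expression was not known, so whether the members exceed expressed genes was not tested. The members were also chosen with earlier results of these data known, so the shares are descriptions only. With a fold of at least 5, 5 members had a site, beside 19.7% of protein-coding genes, and with a p of at most 1e-10 5 members, beside 15.4%. With a false discovery rate below 100% there were 3 members (Virma, Zc3h13 and Rbm15), beside 7.29%, and below 50% there were 2 (Virma and Zc3h13), beside 1.61%. More than 1 site was found on 4 of the 6 members with a site, Zc3h13, Mettl14, Virma and Wtap, and on 40.3% of all genes with a site. The strongest fold per gene had a median of 8.765 over the 6 members with a site and 8.1 over all 4953 genes with a site.

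**Figure D1:**
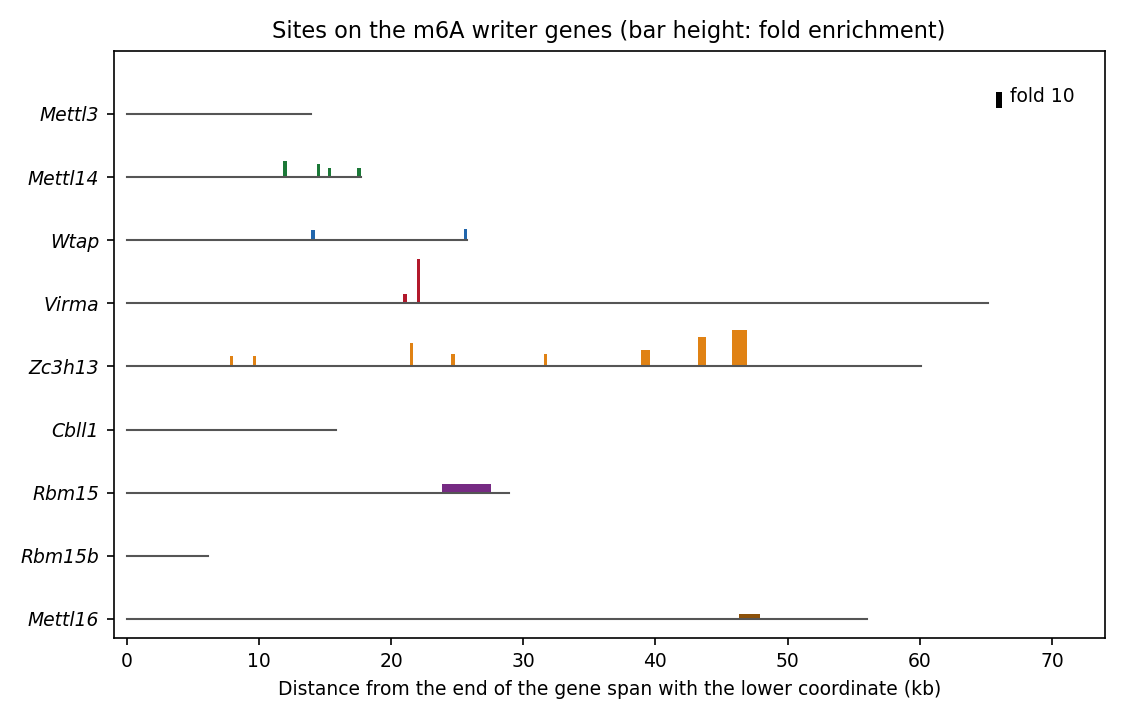
Each line is the genomic span of a writer gene in kb from its lower coordinate, and each bar is a site whose height is its fold enrichment, IP over input, on the scale of the black bar (fold 10); sites shorter than 0.25 kb are drawn 0.25 kb wide. Zc3h13 carries 8 sites along its span, Virma 1 tall and 1 low site side by side, Rbm15 a single site of 3770 bases, and Mettl3, Cbll1 and Rbm15b none.

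Longer genes carried sites more often, and the members differ in length. The genes were therefore set beside protein-coding genes of like genomic span, in 10 groups of equal size. The share of genes with a site in the group that held each member was 10.5% for Rbm15b (span 6.148 kb), 20.4% for Mettl3 and Cbll1, 21.8% for Mettl14, 29.0% for Wtap and Rbm15, 32.6% for Mettl16 and 39.9% for Virma and Zc3h13. The 3 members without a site were the 3 with the shortest spans, all under 16 kb, and the member next in length, Mettl14, had 4 sites. The members were named without regard to length, and no test was made of this order.

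**Figure D2:**
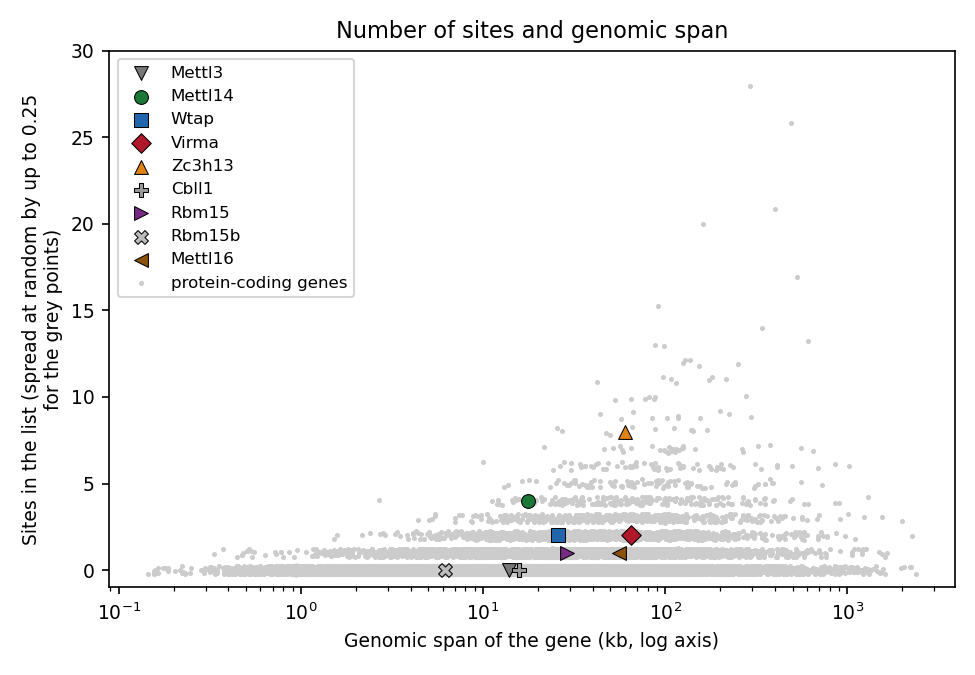
Genomic span in kb (log axis) against the number of sites for all 21900 protein-coding genes (grey points) and the 9 writer genes. Zc3h13 with 8 sites and Mettl14 with 4 sites stand high for their span, and the 3 writer genes at 0 are the shortest.

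Of the catalytic core, Mettl14 carried sites and Mettl3 did not. The 4 sites of Mettl14 lay on chromosome 3 at 123380220 to 123380307 (fold 10.25), 123382755 to 123382842 (fold 8.19), 123383596 to 123383684 (fold 5.8) and 123385762 to 123385990 (fold 5.86), in a gene that spans 123368295 to 123385990. All 4 fell toward the end with the higher coordinates, at 67.6% to 99.4% of the span, and the last one ended exactly at the outer base of the gene, as did an edge of 8.88% of all matched sites. The strand of Mettl14 is not in the tables used here. The first 3 sites were short, 88, 88 and 89 bases against a median of 211 bases over all sites.

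The Mettl14 sites were close to each other in strength of evidence. Their scores, the negative log10 of the peak caller's p times 10, were 105.53, 105.2, 117 and 111.33. The highest exceeded the lowest by a factor of 1.11, the smallest factor among the 212 genes with 4 sites. Each lay just above a score of 100, which stands for a p of 1e-10 and which 62.1% of all sites reached. Their false discovery rate was 100% each, as it was for 74.3% of all sites. Few genes of this length had as many sites: 0.913% of the protein-coding genes in the same group by span had 4 or more.

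Mettl3, the catalytic subunit, spans chromosome 14, 52294841 to 52308741, and had no site. The nearest listed sites belonged to Chd8 below it and Sall2 above it, 78.655 kb apart. The peak caller numbered its peaks along each chromosome, and in all 8987 sites the numbers rose with position. The list holds 8987 of the numbers up to 90659, so most numbered peaks are not in it. Between the Chd8 and the Sall2 site 9 numbers are missing, so peaks were numbered in this stretch, on Mettl3 or on other sequence, that are not in the list analysed here. The 669 bases at the lower end of Mettl3 are shared with its neighbour Tox4.

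Virma, the scaffold of the regulatory subunits, is named 1110037F02Rik in the list and was found by its gene identifier. Its 2 sites lay 830 bases apart on chromosome 4, at 11506954 to 11507076 (fold 5.97, score 142.51) and 11507907 to 11508179 (fold 28.02, score 3100). The second had a false discovery rate of 27.16%, the lowest in the list, which it shared with all 119 sites at the score 3100. Both sites lay at 32.3% to 33.9% of a span of 65.186 kb, counted from the end with the lower coordinates. The strand of Virma, like that of Mettl14, is not given here. The peak numbers of the 2 sites follow each other with none missing. The folds differed by a factor of 4.69, at percentile 97.3 of the 1094 genes with 2 sites. The strong Virma site ranked at percentile 98.5 by fold among all sites.

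Zc3h13, a zinc finger protein that holds the complex in the nucleus, carried 8 sites over chromosome 14, 75292178 to 75331259. Only 1.05% of genes with a site had 8 or more, and 0.776% of the protein-coding genes in its group by span. The gene lies on the plus strand. From the 5′ to the 3′ side the folds were 6.37, 6.35, 14.73, 8.11, 8.03, 10.46, 18.39 and 22.96. The scores in the same order were 81.42, 219.19, 534.57, 98.39, 110.16, 1097.37, 1808.19 and 3075.07.

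The 3 sites nearest to the 3′ end of Zc3h13 had the 3 highest scores of the gene, and 2 of them the highest folds. They lay at 75323224 to 75323874, 75327544 to 75328144 and 75330069 to 75331259, or 65.3%, 72.4% and 77.1% of the way along the span. They were also longer, 651, 601 and 1191 bases, against 109 to 198 bases for the other 5. False discovery rates were 53.59%, 40.98% and 27.39% for these 3, 71.12% for the third site and 100% for the other 4. No listed site lay in the last 13174 bases of the span.

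Peak numbers were missing at 2 places within Zc3h13, between site 4 and site 5 and between site 5 and site 6, counted from the 5′ end, 1 number each. The annotated pseudogene Gm46470 lies in the second of these intervals, at 75320350 to 75320719. Over the 4 members with more than 1 site, 9 of 12 neighbouring pairs of sites (75%) had consecutive numbers, beside 49.1% of 4017 such pairs over all genes. The median distance between neighbouring sites was 2729 bases in the members and 6825 bases over all genes. Most of the 12 pairs belonged to Zc3h13 (8 sites) and Mettl14 (4 sites), and the genes were not matched by span for these values.

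Wtap, the adaptor of the catalytic dimer, had 2 sites of moderate fold on chromosome 17. The first lay inside the gene at 12980822 to 12980949, with a fold of 6.18 and a score of 135.74, at 45.3% of the span from the 5′ end. The second is the site printed above, at 12992309 to 12992546, with a fold of 7.28 and a score of 206.39. The gene lies on the minus strand, and the site ran 3 bases upstream of its outermost annotated start and overlapped the 3 start windows of the gene by 53, 57 and 201 bases. Over all genes with a start window, 22.5% of sites overlapped a window of their own gene. A false discovery rate of 100% was given for both sites.

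Rbm15, an RNA-binding subunit, had a single site of 3770 bases on chromosome 3, 107329332 to 107333101, covering 13.0% of its span. It was among the 60 longest of the 8987 sites. The gene lies on the minus strand. The site began 188 bases after the start that the RefSeq windows give for it, and 1359 bases inside the outer 5′ end of the gene span, which reaches further upstream than that start. Its fold and its score stood far apart in rank. The fold of 5.31 lay at percentile 21.9 of all sites, and at percentile 3.07 of the 2310 sites with a false discovery rate below 100%, while its score of 638.34 lay at percentile 88.8 and its false discovery rate was 66.53%. Rbm15 shares 6605 bases of its span with Slc16a4, and the site does not touch them.

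Rbm15b and Cbll1, which encodes the ubiquitin ligase Hakai, had no site. Rbm15b spans chromosome 9, 106880928 to 106887075, and is closely flanked by listed sites of Dcaf1 (Vprbp in the list) and Manf, 17.505 kb apart, with a single number missing between them. At most 1 unlisted peak could therefore lie on Rbm15b. Cbll1 spans chromosome 12, 31484829 to 31500676, in a stretch of 631.058 kb between listed sites of Dld and Prkar2b in which 46 numbers are missing.

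Mettl16, which methylates the U6 small nuclear RNA and the transcript of Mat2a on its own, had the weakest site of the 9 genes. It lay on chromosome 11, 74817159 to 74818725, at 84.1% of the span from the 5′ end, with a fold of 3.4, a score of 71.87 and a false discovery rate of 100%. Its fold ranked at percentile 1.66 of all sites. At 1567 bases the site was longer than 95.2% of all sites or equal to them. Over all 8987 sites, which share 1 pair of libraries, fold and length had a Spearman rho of 0.04, and over the 18 member sites -0.02.

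**Figure D3:**
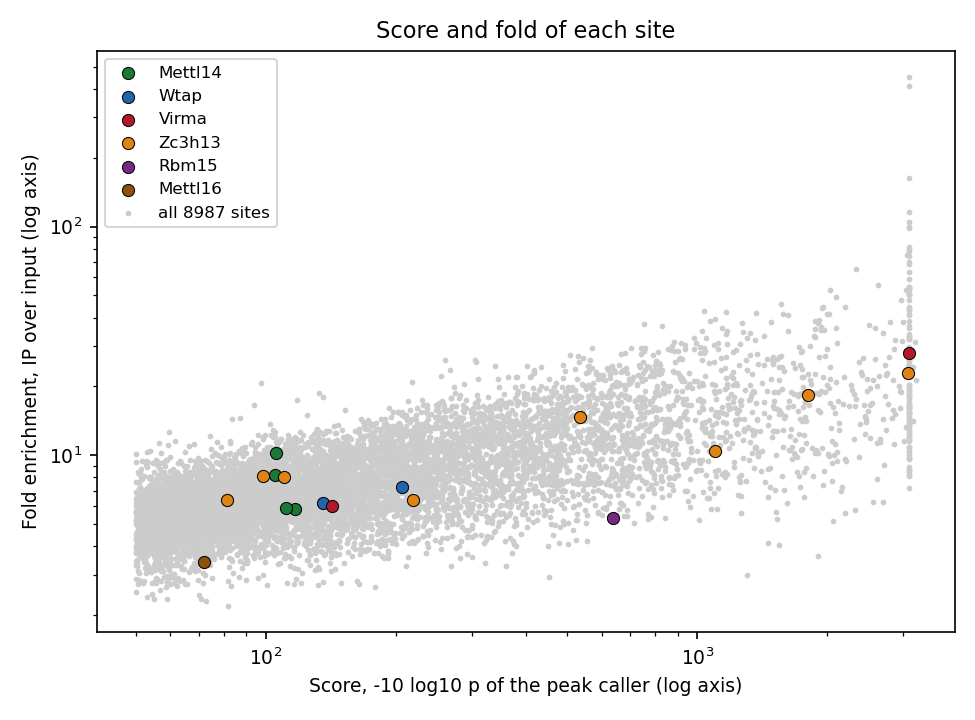
Score of the peak caller against fold enrichment, both on log axes, for all 8987 sites (grey) and the 18 sites of the writer genes (coloured). The strong Virma site and the last Zc3h13 site lie at the upper right, the 4 Mettl14 sites lie close together near a score of 100, and the Rbm15 site lies at the lower edge of the points at its score.

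The 18 sites together were not far from the rest of the list by fold. Their median fold was 7.655 against 7.13 over all sites, and their median score 139.125 against 132.33. A fold of at least 5 was reached by 17 of 18 (94.4%) against 82.7% of all sites, and a p of at most 1e-10 by 15 of 18 (83.3%) against 62.1%. A false discovery rate below 100% was given to 6 of 18 (33.3%) against 25.7%, and one below 50% to 3 of 18 (16.7%) against 4.86%. The 6 sites were 4 of Zc3h13, 1 of Virma and 1 of Rbm15, and sites of 1 gene are not independent of each other. For the 12 member sites with a known strand, 4 (33.3%) lay in the first 20% of the span from the 5′ end and 1 (8.33%) in the last 20%. All 7156 sites placed in this way had shares of 31.0% and 23.7%. Of the 12 sites, 8 belong to Zc3h13, and the sites of Mettl14 and Virma are not among them.

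Over all sites fold and score rose together, with a Spearman rho of 0.67. Over the 18 member sites rho was 0.49. Since each site of a list shares the same libraries, and 8 of the 18 belong to Zc3h13, these values are descriptions. The authors assigned 15 of the 18 sites to a RefSeq NM transcript, a share of 83.3%, and 81.6% of all sites. The exceptions were the second Wtap site, the Rbm15 site and the Mettl16 site. Exons were not in the tables used here, so no site is given as exonic or intronic.

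Of 30 other genes of the m6A pathway, 14 (46.7%) carried a site, with a median strongest fold of 6.415. The share over all protein-coding genes, expressed in islets or not, was 22.2%. This list too was chosen with earlier results of these data known. Among readers with a YTH domain, which binds the methylated base, 3 of 5 had a site: the nuclear reader Ythdc1 (fold 30.85, 4 sites) and the cytoplasmic readers Ythdf1 (13.74) and Ythdf3 (9.02). Ythdf2 and Ythdc2 had none. Ythdc1 was the only one of the 30 with a fold above that of Virma. Among 10 other proteins reported to bind m6A RNA, 5 had a site, Fmr1 (19.98), Igf2bp2 (6.47), Fxr2 (6.36), Prrc2a (5.74) and Rbmx (5.57), and Igf2bp1, Igf2bp3, Hnrnpa2b1, Hnrnpc and Fxr1 had none.

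Of the demethylases, Alkbh5 had a site with a fold of 8.07 and Fto had none. Of 5 other RNA methyltransferase genes and their partners, Mettl5, which modifies ribosomal RNA, had a fold of 5.28, and Mettl4, Trmt112, Zcchc4 and Pcif1 had no site. Of 4 genes grouped here under S-adenosylmethionine supply, Ahcyl1 (12.47) and Mat2b (5.3) had a site. The grouping implies no enzyme activity for Ahcyl1. Mat2a, which encodes the enzyme that makes S-adenosylmethionine and whose transcript Mettl16 is known to methylate, had none in the list, nor had Ahcy. Cebpz (6.09) and Smad2 (5.5) had 2 sites each, and Smad3 and Trim28 none. The share with a site was 66.7% for the 9 writer genes and 46.7% for these 30, a difference of 6 of 9 against 14 of 30 that was not tested.

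**Figure D4:**
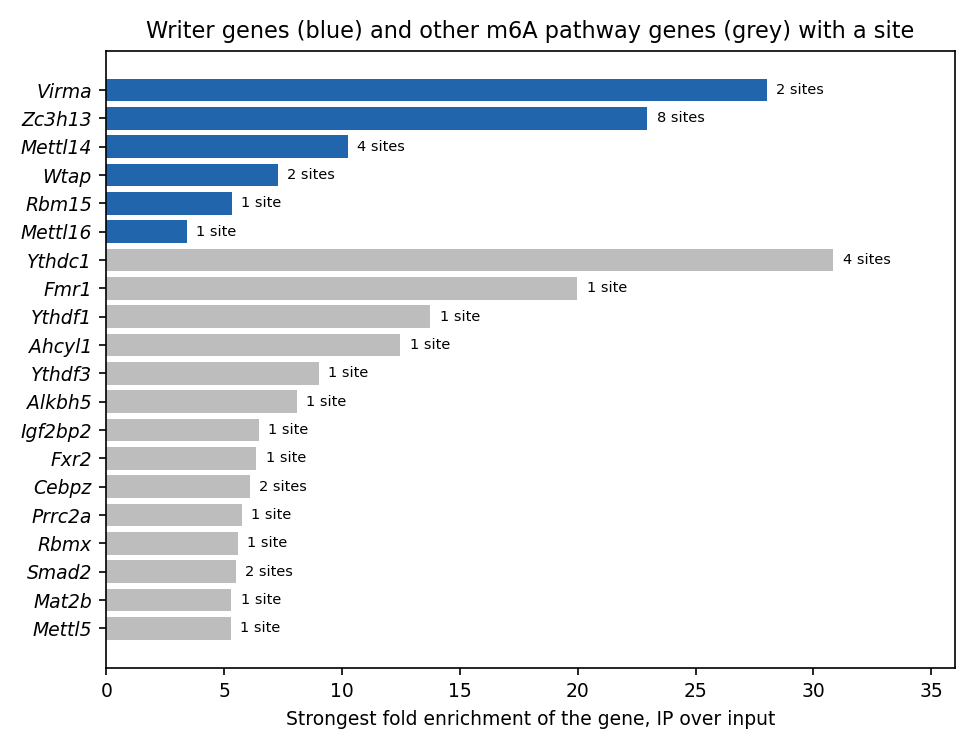
Strongest fold enrichment per gene, IP over input, for the 6 writer genes (blue) and the 14 other m6A pathway genes (grey) with a site, with the number of sites beside each bar. The writer genes run from 28.02 for Virma to 3.4 for Mettl16, and the other genes from 30.85 for Ythdc1 to 5.28 for Mettl5.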

How the data were processed

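Per the labels' protocols and the submitters' processing notes, reads were trimmed with cutadapt 1.9.3, aligned with HISAT2 2.0.4, called with MACS and assigned to transcripts by in-house scripts. The labels name both HG19 and mm10. Sites matched mouse gene spans of GRCm38.p6, so coordinates are GRCm38, counted from 1. The deposited table gives, per the file headers, a score (the negative log10 of p, times 10), a fold enrichment (a linear ratio) and an FDR, read here as a percent, for each site, from 1 IP and 1 input library. The sources used here do not give how the authors computed the FDR.

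Sites were matched to RefSeq genes by gene identifier (8822 sites) or by symbol or synonym (8942 in all); 45 were not matched. Percentiles are the share of sites or genes at or below a value. Span groups are 10 equal groups of 21900 protein-coding genes. Sequences and strands come from the RefSeq start windows of GRCm38.p6, which held 7 of the 9 members. Site sequences outside these windows were not analysed here. Python 3.11.15 and pandas 2.3.3 were used; gene matching was tested on simulated input.

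All members and all sites of each are named, and of the other m6A genes each one of the list. Members and lists were chosen with earlier results of these data known. Alternatives were limits on fold, p and FDR, merged sites and other rankings. With 1 library per group no test was made.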

Additional observations from a re-analysis of the deposited data

How the results depend on the processing

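With an FDR below 100% there were 3 members with a site (Virma, Zc3h13 and Rbm15) and 6 sites. The median strongest fold of these 3 was 22.96, the value of Zc3h13. At that limit 6 of the 30 other m6A pathway genes had a site, beside 7.29% of all protein-coding genes. With an FDR below 50% there were 2 members (Virma and Zc3h13) and 3 sites. With a fold of at least 5 there were 5 members and 17 sites, and with p of at most 1e-10 5 members and 15 sites, Mettl16 being the one lost under both; the median strongest fold under the p limit was 10.25, and with the median fold per gene it was 6.8775. These limits keep fewer sites by construction, and the shares of all protein-coding genes at each limit are given above. Fold and score rose together over all sites (Spearman rho 0.67), so a limit on p also tends to keep higher folds. No median over all genes is given under the limits, so the medians of the members have no background there. The p limit left 2862 of the 3112 bases covered on Zc3h13 and changed the covered length of no other member that kept a site. Merging sites closer than 100 bases changed nothing, since none were that close.

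Ranks moved more. By the strongest fold among all genes with a site, the percentiles were 97.4 for Virma, 95.3 for Zc3h13, 67.4 for Mettl14, 40.1 for Wtap, 14.4 for Rbm15 and 0.848 for Mettl16. By the median fold per gene they were 95.5 for Virma, 73.3 for Zc3h13, 48.1 for Mettl14, 43.4 for Wtap and 17.3 for Rbm15, with Mettl16 at 0.848 as before. Among genes with the same number of sites they were 96.5, 91.7, 34.9, 27.8 and 21.9 for the same genes and 1.42 for Mettl16. The sets compared held 1094, 12, 212, 1094 and 2958 genes in that order, and 2958 for Mettl16. By the highest score, a ranking added after seeing the data, the percentiles were 99.9, 97.7, 37.0, 57.4 and 84.0 in the same order of genes, and 16.5 for Mettl16. The 99.9 of Virma rests on the score 3100, which 119 sites share, and ties count as at or below. Virma stayed first and Mettl16 last under these rankings, and the causes of the other changes were not tested.

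No paired analysis was possible because each group has 1 library. Positions along transcripts were not run, since no exons were at hand. Read depth is unknown, so no fold carries an error.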
